A study of Mus musculus with 2 samples.

Results

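The 7 genes described here are the complement subunit genes C1qa, C1qb and C1qc and the macrophage genes Axl, Cd5l, Siglec1 and Spic. They were found among the 19505 genes named in the platform annotation, and each had 1 probe set. Expression was measured on 2 Affymetrix arrays, 1 with RNA of wild-type mouse innate lymphoid cell (ILC) progenitors and 1 with RNA of progenitors labelled Yeats4 knockout, whose wild-type counterparts were littermates. Flow cytometry selected cells without lineage markers that carried CD127, intermediate c-Kit and Sca-1 and the integrin α4β7. The labels do not name the allele, the Cre driver or the age and sex of the mice, nor say how many mice gave each sample. The genes were selected on their higher values on the array labelled knockout, that is, on this same contrast, so their differences are given as a description, with no test. With 1 array a genotype there is no replicate error for any value. Pairs of values below are log2 readings in the order wild-type, knockout.

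C1q is the recognition part of the classical complement pathway, built from A, B and C chains, and tissue macrophages are among its main sources. Macrophages of the bone marrow take up dying cells and the nuclei shed by erythroblasts, and recycle their iron. Spic encodes an ETS factor of the PU.1 family that macrophages of this iron-recycling kind need. Siglec1 encodes the sialic acid-binding receptor CD169, a surface marker of marrow macrophages. Cd5l encodes a secreted scavenger receptor cysteine-rich protein of macrophages, and Axl a receptor tyrosine kinase that binds Gas6 on dying cells.

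Promoters of the members that read above background on both arrays are shown because these genes differ in the same direction. RefSeq promoter sequences (GRCm38.p6) were matched for 5 of the 7 members, namely C1qb, C1qc, Axl, Cd5l and Spic. The lines below give the 250 bases before the annotated start of C1qb (chr4:136886201-136886450, minus strand), C1qc (chr4:136892915-136893164, minus strand) and Axl (chr7:25788734-25788983, minus strand). Capitals mark matches on either strand to GAGGAA, a core bound by Spi-family ETS factors, to TGCTGA, part of the element of large Maf factors, and to AGGTCA, part of the element of nuclear receptors.
C1qb: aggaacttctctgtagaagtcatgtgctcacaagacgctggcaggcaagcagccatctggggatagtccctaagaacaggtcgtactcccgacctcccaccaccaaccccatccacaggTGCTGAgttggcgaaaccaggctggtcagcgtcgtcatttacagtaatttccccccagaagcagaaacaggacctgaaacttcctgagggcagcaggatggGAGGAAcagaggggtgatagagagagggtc
C1qc: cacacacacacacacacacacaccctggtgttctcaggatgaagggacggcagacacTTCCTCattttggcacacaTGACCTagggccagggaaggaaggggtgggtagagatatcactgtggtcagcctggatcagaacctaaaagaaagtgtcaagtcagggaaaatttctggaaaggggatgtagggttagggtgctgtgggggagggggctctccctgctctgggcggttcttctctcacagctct
Axl: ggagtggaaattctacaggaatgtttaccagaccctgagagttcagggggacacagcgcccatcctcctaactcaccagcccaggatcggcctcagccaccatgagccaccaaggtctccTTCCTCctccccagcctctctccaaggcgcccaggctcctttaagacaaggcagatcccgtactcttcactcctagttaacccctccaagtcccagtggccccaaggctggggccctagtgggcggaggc
GAGGAA or its reverse complement was present in 4 of the 5 windows, all but that of Spic, and in 23.3% of the 32851 promoter windows of this length. TGCTGA was present in 3 of the 5, those of C1qb, Cd5l and Spic, and in 16.1% of all windows. AGGTCA was present in 1 of the 5, that of C1qc, and in 14.0% of all windows. The E-box CACGTG was in none of the 5 and in 6.02% of all windows. None of the matches in the 5 windows overlapped another. Matching letters are a description of the sequence and show no binding.

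All 7 genes read higher on the array labelled knockout, by 0.58 to 1.59 on the log2 scale with a median of 1.08. A level filter kept the 10881 genes whose mean reached 2.88, the median over all probe sets, and their median difference was 0.08. By any amount 58.2% of them were higher. Of the 7 members, 4 (Axl, Cd5l, Siglec1 and Spic) passed a 2-fold difference as measured, where 1.56% of the 10881 genes did, and none was 2-fold lower, where 0.781% were. Such a count takes readings near background as they stand and sets no lower limit on a fold. All 7 passed 1.5-fold as measured, where 9.16% of those genes did, and C1qb lay at that limit. In bulk samples such as these, more cells of a type and more RNA per cell cannot be told apart. These counts follow from how the members were chosen and support nothing further. Cd5l and Siglec1 passed the level filter only through the array labelled knockout, since their wild-type readings lay under 2.88.

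**Figure D1:**
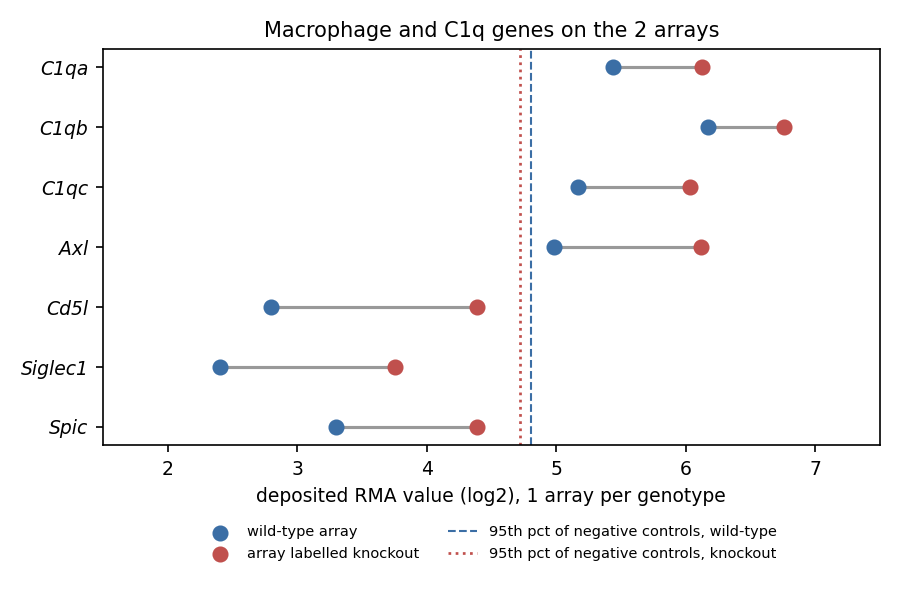
Deposited log2 value of each of the 7 genes (x axis) on the wild-type array (blue) and the array labelled knockout (red), 1 array each, with the 95th percentile of the negative control probe sets as vertical lines. All 7 genes sit further right on the array labelled knockout, and Cd5l, Siglec1 and Spic lie left of both lines at 4.80 and 4.73.

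Background was read from 5222 negative control probe sets, with a 95th percentile of 4.80 for the wild type and 4.73 for the knockout. On both arrays 4 members lay above it (C1qa, C1qb, C1qc and Axl), while Cd5l, Siglec1 and Spic lay under it on both. The 4 above background had a median difference of 0.77, and the 5283 genes above background on both arrays had a median of 0.13. Only Axl of these 4 was 2-fold higher, in a set of genes of which 0.284% were.

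Among the complement subunits, C1qa (Entrez gene 12259) encodes the A chain and read 5.44 and 6.13. It was 1.61-fold higher (0.69 log2), and 17 of the 500 genes nearest in mean level had a difference as high or higher. The spread of those neighbours, a scaled median absolute deviation, was 0.33 and describes scatter between these arrays, not between mice. C1qb (Entrez gene 12260), the B chain gene, read 6.17 and 6.76. Its difference of 0.58 compares with a neighbour spread of 0.30, and 42 of 500 neighbours were as high. C1qb therefore differed least of the 7 genes, both in size and relative to genes of like level. C1qc (Entrez gene 12262), the C chain gene, read 5.17 and 6.03, which is 1.82-fold higher (0.86, spread 0.35). For C1qc 9 of 500 neighbours were as high. The neighbours were themselves higher, with median differences of 0.16 for C1qa, 0.18 for C1qb and 0.16 for C1qc. Counted from those medians, C1qa, C1qb and C1qc lay 1.58, 1.36 and 1.99 neighbour spreads higher.

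The C1q genes differed from one another by at most 0.28 in their log2 differences, less than the neighbour spread of each. They lie next to each other on chromosome 4 in the order C1qb, C1qc, C1qa, per the RefSeq gene table. The gene beside C1qa, the ephrin receptor gene Epha8, was near background on both arrays and at -0.42. Zbtb40 beyond it was at -0.39 and also near background. On the C1qb side, Ephb2 was not analysed here, and Lactbl1 beyond it, near background, was at -0.59. The nearest flanking genes with readings above background were Kdm1a, which encodes a histone demethylase, at -0.09 and Cdc42, which encodes a small GTPase, at 0.04. The higher readings within the cluster were thus not shared by these measured flanking genes.

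Axl (Entrez gene 26362) read 4.98 and 6.12, 2.20-fold higher (1.14, neighbour spread 0.35). Counted from its neighbours' median difference of 0.15, Axl lay 2.78 spreads higher. On the wild-type array Axl lay just above the negative control level. Only 1 of its 500 neighbours in level had a higher difference, and 7 of the 5283 genes above background on both arrays did. Beside Axl on the chromosome, Hnrnpul1 (0.01) and, further on, Ccdc97 (-0.18) and Tgfb1 (0.02) were above background on both arrays. B9d2 beyond them was at 0.47 but under background in the wild type. Cyp2s1, which adjoins Axl on the other side, was near background at -0.55.

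Cd5l (Entrez gene 11801) read 2.80 and 4.39, a difference of 1.59 with a neighbour spread of 0.48. None of its 500 neighbours in level was as high, and 2 of the 10881 genes past the filter were higher. Siglec1 (Entrez gene 20612) read 2.41 and 3.76, a difference of 1.35 with a spread of 0.47. Of its neighbours 2 were as high. Spic (Entrez gene 20728) read 3.30 and 4.39, a difference of 1.08 with a spread of 0.43, and 7 neighbours were as high. For these 3 genes only measured differences are given and no fold can be bounded, since neither array lay above the negative control level.

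Negative controls themselves scattered widely at such levels. Among the 500 negative controls nearest in mean level, 1 had a difference at least as high as Cd5l, 9 at least as high as Siglec1 and 8 at least as high as Spic. For the members above background these numbers were 19 for C1qa, 30 for C1qb, 11 for C1qc and 3 for Axl. The spread of those controls was 0.46 for C1qa, 0.45 for C1qb and 0.47 for both C1qc and Axl. Each was wider than the spread of neighbouring genes given above. Scatter of the controls thus bears on the C1q genes too. Cd5l read above 73.5% of negative controls in the wild type and above 93.5% in the knockout. For Siglec1 these shares were 65.5% and 88.7%, and for Spic 81.8% and 93.5%. C1qb read above 98.1% and 98.9% of them, which concerns its level and not its difference. Nearby on chromosome 10, Arl1 (0.79) and Utp20 (0.84), 2 and 3 genes from Spic and above background on both arrays, were higher too. They were singled out after their values were seen, and the genes adjoining Spic, Mybpc1 (-0.07) and Gm4925 (-0.04), were near background.

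**Figure D2:**
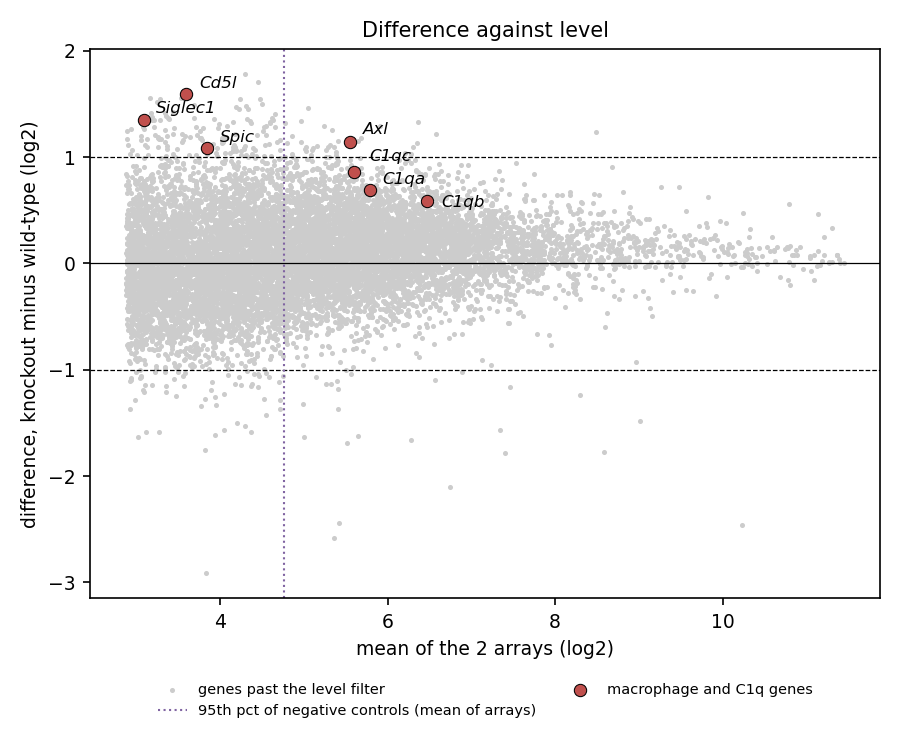
Difference between the arrays (y axis, log2, knockout minus wild-type) against the mean of both arrays (x axis, log2) for the 10881 genes past the level filter (grey) and the 7 members (red); dashed lines mark 2-fold. Cd5l, Siglec1 and Spic lie left of the negative control level, where the grey points scatter most, and Axl lies above the 2-fold line to the right of it.

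Other macrophage genes were mostly higher as well, with a lower median than the members. Vcam1 (0.97), Itgad (0.97, near background) and Fcna (0.88, under background in the wild type) differed by more than any C1q gene. Of 24 measured genes of a marrow and splenic macrophage list 17 were higher, with a median of 0.31. Over all 19505 genes 50.8% were higher and the median was 0.01. Past the level filter 14 of 17 were higher, where 58.2% of genes were, with a median of 0.55, and none was 2-fold higher or lower. The lower ones, Cd14 (-0.12), Mpeg1 (-0.10) and Sirpa (-0.10), were above background on both arrays. Of the 9 genes above background on both arrays 6 were higher, with a median of 0.27. Over all genes above background on both arrays the median was 0.13, and the share that were higher was not counted. The defining macrophage markers did not read alike. Adgre1, which encodes F4/80, was near background on both arrays, at 3.69 and 4.53. Mertk, a relative of Axl, was also near background, at 2.61 and 3.36. Csf1r, the receptor for macrophage colony-stimulating factor, was above background at 7.03 and 7.27. Its difference of 0.24 was within its neighbour spread of 0.27. Vcam1, an adhesion molecule of macrophages and of stromal cells, read 5.84 and 6.81, which is 1.96-fold higher (0.97, spread 0.29). Itgad, an integrin chain of macrophages, was near background at 3.21 and 4.17. Fcna, a ficolin of the lectin complement pathway, read 4.11 and 4.99 and was at least 1.14-fold higher when the negative control level of 4.80 is put in place of its wild-type reading. Cd68 was not analysed here. Above the negative control level were 9 of the 24 genes in the wild type and 11 in the knockout.

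Lists of other myeloid cells had lower medians than the macrophage list. Of 12 monocyte genes, all past the filter, 4 were higher and 8 lower, where 58.2% of genes past the filter were higher. Their median was -0.19, and 11 of the 12 were above background on each array. Their largest differences were those of S100a4 (-0.44), Cx3cr1 (-0.35, near background) and Klf4 (-0.30). Of 11 neutrophil genes, all above background on both arrays, 4 were higher and 7 lower (median -0.21), beside the same share of 58.2%. The higher ones were the primary granule genes Ctsg (0.72), Prtn3 (0.55), Elane (0.34) and Mpo (0.25), of which Ctsg lay within the range of the C1q genes. Among the lower ones were Ltf (-0.55) and Mmp9 (-0.50), which encode granule proteins of later neutrophil stages. Of 8 dendritic cell genes past the filter 5 were higher (median 0.10), near the share over all genes past the filter, with Itgax (0.49, near background), Bst2 (0.47) and Flt3 (0.46) highest. Of 6 eosinophil genes past the filter 4 passed 2-fold lower as measured, where 0.781% of genes did, and 2 were higher. The lower ones were the granule genes Ear6 (-1.78), Epx (-1.56) and Prg2 (-1.48) and the lipoxygenase gene Alox15 (-1.68). The chemokine receptor gene Ccr3, under background in the wild type, was at 0.96 and Siglecf, near background, at 0.14. These lists are set side by side, and the difference between them was not tested.

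Cells that surround marrow macrophages gave mixed readings. Of 7 erythroid genes past the filter 3 were higher, where 58.2% of genes were, and 4 lower (median -0.19). Slc4a1 was at -0.44, Car1 at 0.42 and Ermap at -0.42. The globin genes were not analysed here. Of 11 measured stromal and endothelial genes 7 were higher, where 50.8% of all genes were, with a median of 0.33. On both arrays 8 were near background. Past the filter 2 of 7 were 2-fold higher as measured and 1 lower, where 1.56% and 0.781% of genes were. Cxcl12, the chemokine of marrow reticular stroma, read 5.70 and 7.03, which is 2.52-fold higher (1.33). That was the highest difference among the 5283 genes above background on both arrays. Igfbp5, which encodes a binding protein of insulin-like growth factors, was near background at 2.75 and 4.31. Col1a2, a collagen chain gene near background, was at -1.08. Readings of this list ranged from 1.47 to 6.08 in the wild type and from 1.29 to 7.03 in the knockout, and its part in the members' differences was not tested.

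Lymphoid genes were lower on the same array. Of 14 T cell genes 13 were lower (median -1.12), where 58.2% of genes past the filter were higher. Of the 14 genes, 11 were above background in the wild type against 5 in the knockout. As measured 9 passed 2-fold lower, where 0.781% of genes past the filter did, led by Cd3d (-2.92), Cd8b1 (-2.58) and Cd8a (-2.44). All 11 measured B cell genes were lower (median -0.76), where 50.8% of all genes were higher. Vpreb1 (-1.37), Pax5 (-1.32), Igll1 (-1.16) and Vpreb3 (-1.02) passed 2-fold lower as measured, where 0.781% of genes past the filter did. Vpreb1 and Pax5 were under background in the knockout. In the sort gate and progenitor list 3 of 9 were higher, where 58.2% of genes past the filter were. Id2, a repressor of E proteins, was at 1.23, Nfil3 at -0.93 and Il7r, which encodes CD127, at -0.70. All 9 were above background in the wild type and 8 in the knockout. The 3 measured Y-linked genes were higher on the array labelled knockout, and Eif2s3y, which read 3.40 and 5.18, was the only 1 of them above background there. Uty, near background, was at 1.54. Yeats4 read 5.96 and 5.90. The position of its probes against the deletion is unknown here, so this reading cannot check the label. Whether these shifts have a part in the macrophage readings was not tested. The arrays measured each sort as a whole, and with 1 array a genotype the genotype, the sex of the mice and the cells that came through a sort cannot be told apart.

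**Figure D3:**
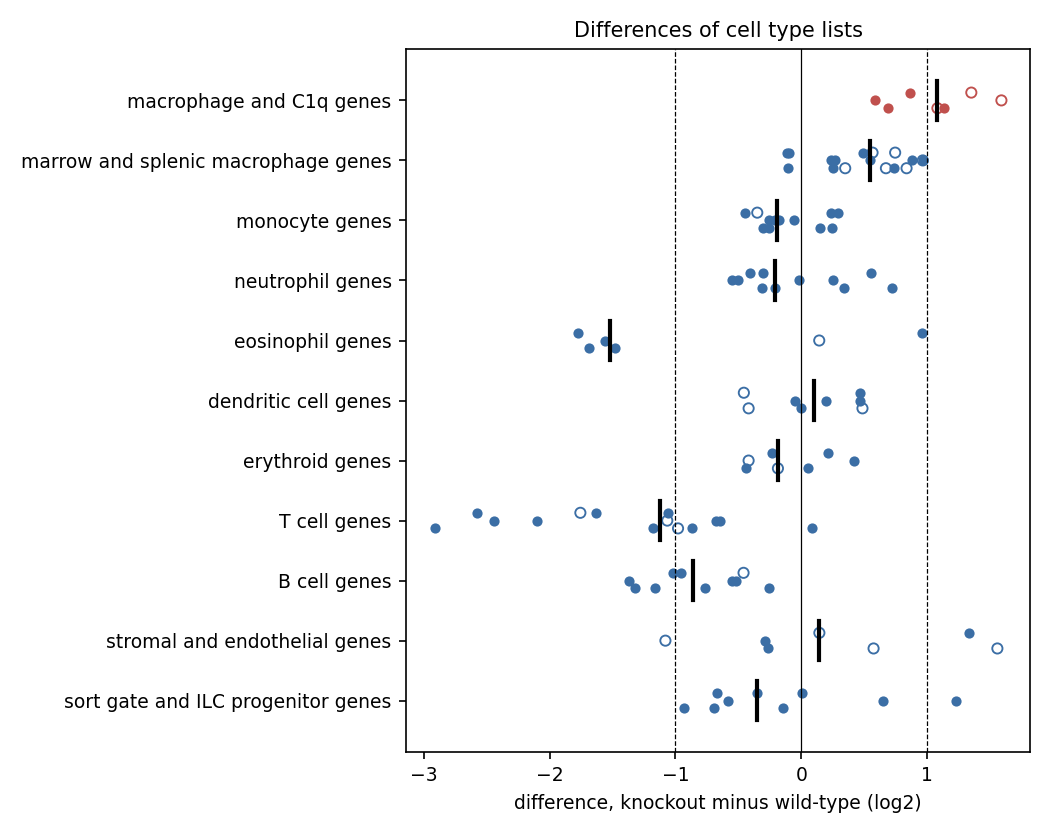
Difference between the arrays (x axis, log2, knockout minus wild-type) for the genes past the level filter in the 7 members (red) and in 10 cell type lists (blue, rows); filled points were above the negative control level on at least 1 array, open points on neither, and black bars are medians. The macrophage list (median 0.55) lies right of 0, and the T cell (-1.12), B cell (-0.86) and eosinophil (-1.52) lists lie left of it.

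Most other complement component genes were near background, unlike the C1q genes. C1q acts with the proteases C1r and C1s, of which C1s cleaves C4 and C2. The measured genes of these proteins were near background on both arrays. C1ra read 2.69 and 3.21, C1s1 3.34 and 3.53 and C2 1.13 and 1.20, and the difference of C4b was 0.30. Of 17 measured complement components 14 were near background on both arrays and none past the filter was 2-fold higher or lower. Past the filter 6 of 7 were higher, where 58.2% of genes were, with a median of 0.19. The exception was C8g (-0.58), which encodes a chain of the terminal complex. Among 12 receptors and regulators past the filter 7 were higher and 5 lower, with a median of 0.06. That is near the share of 58.2% over all genes past the filter. Serping1, the inhibitor of C1r and C1s, read 4.87 and 5.77 and was 1.87-fold higher (0.90, neighbour spread 0.37). Calr, which encodes the C1q-binding chaperone calreticulin, read 10.01 and 10.48 (0.48), and Itgax, a chain of a complement receptor, was near background at 0.49.

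Partners of Axl were near background. The ligand gene Gas6 read 2.61 and 2.73, and Pros1, which encodes protein S, 4.02 and 4.10. Tyro3, a relative of Axl, read 3.30 and 2.77. All 4 genes of this list, Mertk included, lay under the negative control level on both arrays. Axl was thus the only receptor of its family above that level here. Of 20 other receptors and bridges for dying cells 10 were higher, where 50.8% of all genes were. None past the filter was 2-fold higher or lower (median 0.14 for 13 past the filter). The cholesterol transporter gene Abca1 (0.48, near background), Cd300lb (0.43, near background) and Scarb1 (0.41) differed most.

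Relatives of Cd5l and Siglec1 were not higher as a family. In the scavenger receptor cysteine-rich family 2 of 5 genes past the filter were higher (median -0.64), where 58.2% of genes were. Over all 10 measured genes of this family 5 were higher (median -0.14), where 50.8% of all genes were. Cd6 (-1.06), Cd163l1 (-0.72, near background) and Cd5 (-0.64) were lower, and Cd5 and Cd6 are T cell genes. Of 10 LXR receptors and target genes, a group to which Cd5l belongs as a target, 6 were higher, where 50.8% of all genes were. Past the filter their median was 0.17, with Mertk at 0.75, Mylip, which encodes a ubiquitin ligase for the LDL receptor, at -0.56 and Abca1 at 0.48. Among 7 other sialic acid-binding lectins past the filter 3 were higher, where 58.2% of genes were. Differences ran from -0.46 for Cd22 to 0.14 for Siglecf. Siglec1 is also an interferon-induced gene, and of 18 measured type I interferon-induced genes 16 were near background on both arrays. In that list 11 of 18 were higher (median 0.13), where 50.8% of all genes were. Past the filter 7 of 8 were higher and none lower (median 0.25), where 58.2% of genes were higher. Highest past the filter were Oas1a (0.64), Irf7 (0.62) and Bst2 (0.47), and only Bst2 of these was above background.

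Of 20 measured genes of iron and haem recycling 15 were higher, with a median of 0.27, where 50.8% of all 19505 genes were higher. Past the filter 14 of 19 were higher, where 58.2% of genes were, and 3 passed 1.5-fold as measured, where 9.16% did. These were Vcam1, a known target of Spic, the haem transporter gene Slc48a1 and the ferrireductase gene Steap3. Slc48a1 read 6.31 and 7.14 (0.83) and was above background on both arrays. Steap3 read 4.49 and 5.21 (0.72), with only the array labelled knockout above background, and was at least 1.32-fold higher against the negative control level. Bach2, a repressor related to the haem sensor Bach1, was lower as measured, at 5.31 and 4.68 (-0.62). Lists overlap, since Vcam1 belongs to the macrophage list as well.

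Macrophage transcription factors gave no common direction. Of 13 past the filter 6 were higher and 7 lower (median -0.06). Over all genes past the filter 58.2% were higher and the median was 0.08. Tfec, a MITF-family factor of macrophages, read 5.98 and 6.82 (0.84, neighbour spread 0.30). Irf4 was at -0.43 and Gata6, near background, at -0.42. Zeb2 was not analysed here.

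**Figure D4:**
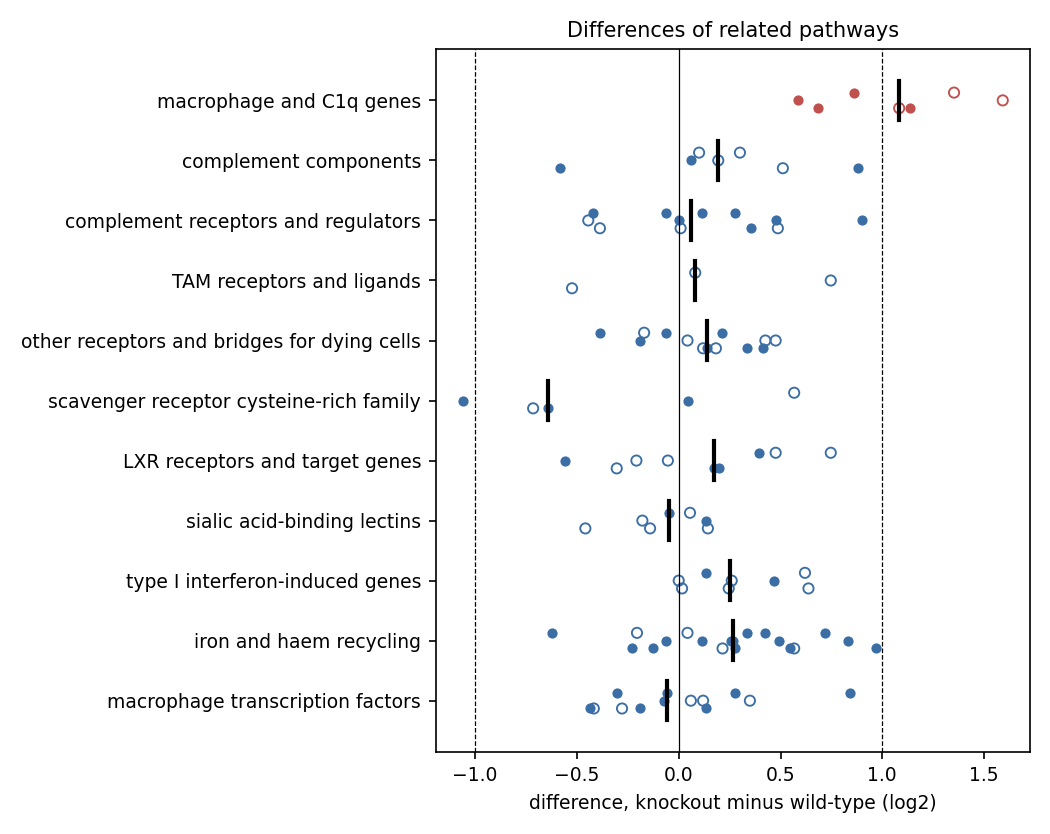
Difference between the arrays (x axis, log2, knockout minus wild-type) for genes past the level filter in the 7 members (red) and in 10 related pathways and families (blue, rows); filled points were above the negative control level on at least 1 array, open points on neither, and black bars are medians. The pathway medians lie between -0.64 and 0.27, and the members' median is 1.08.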

How the data were processed

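Gene expression of sorted ILC progenitors was measured on 1 array a genotype. The deposited values are log2 expression per probe set, made by the authors with Affymetrix Power Tools and RMA, per the submitters' processing notes. RMA is meant to bring the arrays to a common distribution, and differences in the amount of RNA per cell are lost. The deposited values did not match exactly, with medians over all probe sets of 2.91 in the wild type and 2.87 in the knockout. Tool versions and genome build were not given in the sources used here. Scanner intensities were not used. The series' design text names another array than the one the probe set names match, so the gene names rest on that platform annotation.

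Values were used as deposited, and differences are knockout minus wild-type. A gene is its probe set of highest mean. The level filter kept genes whose mean reached the median over the 29129 probe sets. A gene was above background when it exceeded the 95th percentile of the negative controls of its array. Neighbour spreads use the 500 other genes past the filter nearest in mean level; the calculation was tested on simulated data. RefSeq tables (GRCm38.p6) gave gene order and promoters. No replicates exist, so no test was run, and the number of arrays limits the precision.

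The members, gene lists and tests were chosen with earlier results of these data known. All members are named. In each list the text could name up to 6 members past the filter that differed 2-fold, or else up to 3 of largest difference, and a few defining markers. Other genes, including neutrophil granule genes, chromosomal neighbours and C1r, C1s and C4 pathway members, were named as examples after their values were seen. Alternatives were centring, a lowess correction on level (fraction 0.3), quantile normalization, probe set means, raised low values and other thresholds. Python 3.11.15, numpy 2.4.6, pandas 2.3.3 and statsmodels 0.14.6 were used.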

Additional observations from a re-analysis of the deposited data

How the results depend on the processing

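Of 35 recomputed differences of single members 11 could not change by construction, since each member has 1 probe set and 4 members lie above the raised level. Of the other 24, 21 stayed above 0 and moved by less than the neighbour spread. The remaining 3, those of Cd5l, Siglec1 and Spic, became 0 when values under 4.80 were raised to it, since neither of their readings exceeds that level. With those raised values the number of members at least 2-fold higher was 1 instead of 4, and the median difference of the members was 0.58 instead of 1.08. That number was also 1 when the level filter was set at the 75th percentile and 1 among genes above the negative control level on both arrays, an alternative added after seeing the data. It was 7 at a 1.5-fold threshold and 3 after centring on the median. After lowess correction C1qb was at 0.43 and C1qa at 0.55, and after quantile normalization at 0.43 and 0.57, all under 1.5-fold. After centring C1qb was at 0.50, also under 1.5-fold, and C1qa at 0.60, above it. With the 99th percentile of the negative controls as the background level, 0 members lay above it in the wild type and 0 in the knockout. With the 90th percentile the numbers were 4 and 6. Over all genes past the filter, 170 were 2-fold higher and 85 lower, 66.7% of calls being higher. After centring these were 123 and 118 (51.0% higher), and with raised values 19 and 23 (45.2% higher). No paired analysis was possible because each genotype has 1 array. No replicate could be left out for the same reason.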
